A study of Homo sapiens with 2 samples.

Results

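The miR-130 and miR-301 family is a group of microRNAs (miRNAs) that share a seed, the bases near the start of a miRNA that largely decide which transcripts it represses. Its members were taken by name from a table of small RNA counts, as both arms of the miR-130a and miR-130b hairpins together with miR-301a and miR-301b under the names listed. This gave 6 members, hsa-miR-130a-3p, hsa-miR-130a-5p, hsa-miR-130b-3p, hsa-miR-130b-5p, hsa-miR-301a-3p and hsa-miR-301b, of the 859 mature miRNAs and 5475 small RNA features listed. A miRNA hairpin is cut into a 5p and a 3p arm, and in this family the 3p arm carries the common seed. In other tissues the family has been described as a repressor of PPARG, the nuclear receptor of adipocyte differentiation, and as a contributor to pulmonary hypertension, and miR-130a as a promoter of blood vessel growth that represses the homeobox genes MEOX2 and HOXA5.

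A549, an established human lung adenocarcinoma cell line, was grown in DMEM with fetal calf serum and held for 24 h at 20% oxygen (normoxia) or at 1.2% oxygen (hypoxia) before total RNA was taken. Each condition was represented by 1 small RNA library, prepared by adapter ligation for SOLiD sequencing, so a difference between them has no replicate check, and no test or p-value is given. The normoxia library held 6449337 counts, of which 4514818 (70.0%) lay on mature miRNAs, and the hypoxia library 13115226, of which 8600160 (65.6%) did. Levels are given on the counts-per-million (CPM) scale of these mature counts, with exact Clopper-Pearson 95% intervals, and ratios of hypoxia over normoxia on the log2 scale with a prior count of 2 and exact conditional binomial 95% intervals. The reads carry no molecular identifiers, so every interval covers counting error only.

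The label of the cell line was set beside marker miRNAs. Of 6 epithelial miRNAs, all were listed and 5 passed the filter on low counts (a mean log2 CPM above 3), with a summed level of 1168 CPM in normoxia and 1362 CPM in hypoxia. miR-200b-3p was the most abundant of them, at 880 CPM in normoxia and 1084 CPM in hypoxia, and carried the difference in the sum. Among the others, miR-141-3p was lower in hypoxia, at 37.2 CPM and 25.5 CPM, a log2 ratio of -0.54 (-0.84 to -0.25), and miR-200a-3p, miR-200c-3p, miR-429 and miR-205-5p had intervals of the ratio that include 0. The 4 blood miRNAs listed, of 6 in the list, summed to 43.4 CPM and 49.3 CPM. Most of this lay on miR-486-5p, at 23.7 CPM and 26.2 CPM, and miR-451a, at 18.2 CPM and 22.2 CPM. Both passed the filter, with log2 ratios of 0.14 (-0.20 to 0.49) and 0.29 (-0.09 to 0.68). By contrast, miR-142-3p, which is common to blood cells, had 5 and 6 counts. The endothelial pair miR-126-3p and miR-126-5p summed to 222 CPM in normoxia and 221 CPM in hypoxia, and the 5 mesenchymal miRNAs, led by miR-143-3p, to 283 CPM and 274 CPM. The epithelial list had the highest sum of the marker lists in both libraries, with most of its lead due to miR-200b-3p, and the lists differ in how many miRNAs they hold. Within the endothelial pair, miR-126-3p had 179 CPM in normoxia and 190 CPM in hypoxia, and miR-126-5p 42.5 CPM and 31.4 CPM, a log2 ratio of -0.43 (-0.71 to -0.16), so that the nearly equal sums hide a lower 5p arm in hypoxia. Of 4 muscle miRNAs, miR-133a and miR-133b were listed, and neither passed the filter. Each had 0 counts in normoxia, which allows up to 0.664 CPM by the limit of 3 counts and 0.817 CPM by the exact interval. In hypoxia they summed to 2.44 CPM, with 18 counts on miR-133a, whose log2 ratio had an interval from 1.21 upward. The brain miRNAs miR-9-5p and miR-124-3p summed to 52.1 CPM and 53.1 CPM. Nearly all of this lay on miR-9-5p, at 51.4 CPM and 52.4 CPM, and miR-124-3p had 3 and 6 counts and did not pass the filter. The liver miRNA miR-122-5p stood at 0.886 CPM and 0.465 CPM. The part of any of these marker miRNAs in the results on the family was not tested.

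The seed shared by the 3p members and the sequences that separate the members are shown first, since the levels described here depend on which sequence each count was given to. Capitals mark the seed, bases 2 to 8 from the 5′ end. The sequences were taken from RefSeq (GRCh38.p14), except the second version of miR-130a-5p, which is the sequence given in the count table with its flanking bases removed.
miR-130b-3p: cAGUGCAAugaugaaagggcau
miR-301a-3p: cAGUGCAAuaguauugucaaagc
miR-301b: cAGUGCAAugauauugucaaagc
miR-454-3p: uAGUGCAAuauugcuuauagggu
miR-130b-5p: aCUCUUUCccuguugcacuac
miR-130a-5p in RefSeq: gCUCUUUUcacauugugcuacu
miR-130a-5p as counted: uUCACAUUgugcuacugucugc

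Among the 859 listed mature miRNAs, 6 had the seed AGUGCAA, which is 0.698% of them. These were the 4 3p members (miR-130a-3p, miR-130b-3p, miR-301a-3p and miR-301b), miR-454-3p and miR-4295. miR-301b differed from miR-301a-3p by the substitutions A10G and G11A, with positions counted from 1 at the 5′ end and the base of miR-301a-3p given first. miR-130a-3p and miR-130b-3p were likewise 2 edits apart, whereas any other pair among these 4 and miR-454-3p was 9 or 10 edits apart. The 3p sequences therefore fell into a miR-130 pair, a miR-301 pair and miR-454-3p. Whether reads of such near-identical sequences were shared out between the names was not tested, so the values within each pair are uncertain as separate measurements.

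The 5p arms lack the seed of the 3p arms and do not share one another's seed as counted. The RefSeq version of miR-130a-5p starts 6 bases upstream of the counted one, and the versions share 16 bases. The seed of the RefSeq version, CUCUUUU, resembles that of miR-130b-5p, CUCUUUC, whereas the counted version has UCACAUU. The value of miR-130a-5p is therefore that of a sequence whose start differs from the current reference, and the number of its reads with either start was not tested.

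In GRCh38, the MIR130A hairpin (chromosome 11, 57641198 to 57641286) is on the plus strand, within the noncoding gene AP000662.1 and outside its exons. MIR301B (chromosome 22, 21652981 to 21653058) and MIR130B (21653304 to 21653385) are 245 bases apart on the plus strand within the noncoding gene AP000553.1. MIR454 (chromosome 17, 59137758 to 59137872) and MIR301A (59151136 to 59151221) lie 13263 bases apart on the minus strand in introns of SKA2, a protein-coding gene of the spindle and kinetochore complex that is transcribed in the same direction. MIR130B differs from the others in that an annotated exon of its host, from 21653342 to 21653466, begins inside the hairpin. The 3p arm (21653354 to 21653375) lies in this exon and the 5p arm (21653316 to 21653336) outside it. The hairpin is shown with both mature arms in capitals, the 5p arm first, because its 5p arm had more counts than its 3p arm in both libraries.
MIR130B hairpin: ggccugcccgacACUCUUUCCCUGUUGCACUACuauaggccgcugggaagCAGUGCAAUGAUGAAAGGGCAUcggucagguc

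The first question was how abundant each member was and whether the order of the members was kept between the conditions. miR-130a-3p had 239 counts in normoxia, or 52.9 CPM (interval 46.4 to 60.1), and 472 counts in hypoxia, or 54.9 CPM (50.0 to 60.1). It was the most abundant member in both libraries, at rank 190 of 859 in normoxia and 185 in hypoxia, and its intervals overlapped almost entirely. miR-130b-3p, the paralogue from chromosome 22, had 69 and 150 counts, or 15.3 CPM (11.9 to 19.3) and 17.4 CPM (14.8 to 20.5). Its level lay below that of miR-130a-3p in each library, by a factor of 3.46 in normoxia and 3.15 in hypoxia, and its own intervals also overlapped. miR-301a-3p had 32 and 59 counts, or 7.09 CPM (4.85 to 10.0) and 6.86 CPM (5.22 to 8.85). miR-301b had 3 and 9 counts, or 0.664 CPM (0.137 to 1.94) and 1.05 CPM (0.479 to 1.99). Both miR-301 members were thus low in A549, and neither passed the filter on low counts.

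The 5p arms had another pattern. miR-130a-5p had 36 counts in normoxia, or 7.97 CPM (5.58 to 11.0), and 142 counts in hypoxia, or 16.5 CPM (13.9 to 19.5). miR-130b-5p had 89 and 315 counts, or 19.7 CPM (15.8 to 24.3) and 36.6 CPM (32.7 to 40.9). For both 5p arms the hypoxia library was the higher, and the intervals of the libraries did not overlap.

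The order from the highest level in normoxia was miR-130a-3p, miR-130b-5p, miR-130b-3p, miR-130a-5p, miR-301a-3p and miR-301b. The same order held in hypoxia. In normoxia the intervals of miR-130b-5p and miR-130b-3p overlapped, as did those of miR-130a-5p and miR-301a-3p, so these neighbours could not be ordered. In hypoxia miR-130b-5p stood apart from miR-130b-3p by a factor of 2.10 and miR-130a-5p from miR-301a-3p by 2.41, and the neighbours that could not be ordered were miR-130b-3p and miR-130a-5p.

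**Figure D1:**
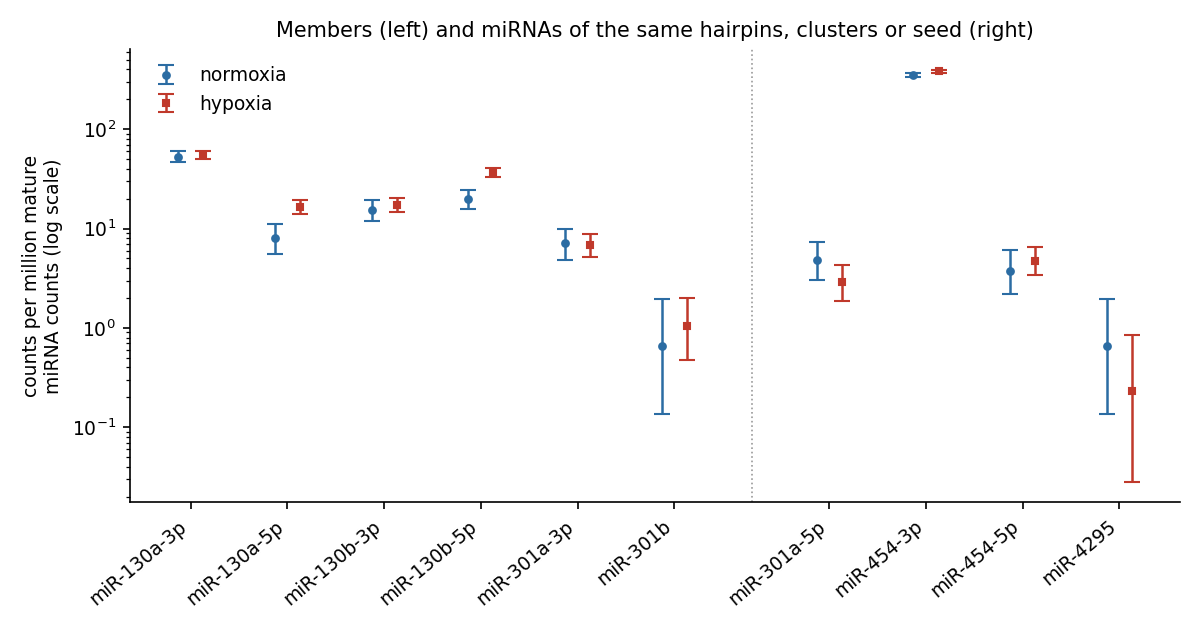
Levels of the 6 members (left of the dotted line) and of 4 miRNAs from the same hairpins or clusters or with the same seed (right), in CPM of mature miRNA counts on a log axis, with circles for normoxia, squares for hypoxia and bars for exact 95% counting intervals of 1 library each. miR-130a-3p stands near 53 CPM in both libraries, while miR-130a-5p and miR-130b-5p stand higher in hypoxia with intervals that do not overlap.

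Together the 4 3p members took 0.00760% of the mature counts in normoxia (0.00681 to 0.00845) and 0.00802% in hypoxia (0.00744 to 0.00864). For scale, miR-21-5p, the most abundant miRNA of both libraries, had 3260103 and 5878970 counts. miR-130a-3p made up 69.7% of the 3p counts of the family in normoxia (64.5 to 74.5) and 68.4% in hypoxia (64.8 to 71.9). miR-130b-3p made up 20.1% and 21.7%, miR-301a-3p 9.33% and 8.55%, and miR-301b 0.875% and 1.30%. The composition of the 3p members was therefore nearly the same in both libraries, with miR-130a-3p as the main member.

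Most counts with the family's seed lay on a miRNA of another name. miR-454-3p, which shares the seed and the SKA2 host gene with miR-301a, had 1584 counts in normoxia, or 351 CPM (334 to 369), and 3295 in hypoxia, or 383 CPM (370 to 396). It made up 82.1% of the counts with the seed in normoxia (80.3 to 83.8) and 82.6% in hypoxia (81.4 to 83.8). miR-4295, the remaining miRNA with the seed, had 3 and 2 counts, and no entry was listed for miR-3666. All 6 miRNAs with the seed summed to 427 CPM (409 to 447) in normoxia and 464 CPM (449 to 478) in hypoxia, against 76.0 CPM and 80.2 CPM for the 4 3p members. In counts, the seed was thus several times more frequent in these libraries than the named family members alone show. No correction for sequence-dependent capture was made, so the relative amounts in the cells could differ from this.

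miRNAs of 1 locus were far apart in level. miR-454-3p exceeded miR-301a-3p, from the neighbouring hairpin in SKA2, by a factor of 49.5 in normoxia and 55.8 in hypoxia. Each hairpin was then taken by its more abundant arm, and of the 44 other pairs of hairpins within 20 kb on 1 strand whose higher miRNA was at least as abundant as miR-454-3p, 19 were as far apart in normoxia, and the median factor was 9.02. On chromosome 22, miR-130b-3p exceeded miR-301b by a factor of 23.0 in normoxia and 16.7 in hypoxia. These factors rest on 3 and 9 counts of miR-301b, so their size is uncertain, although the intervals of the levels did not overlap. A shared locus therefore went with unequal levels in both family clusters. Unequal levels were also common among the 44 other pairs, which give a background for the SKA2 pair only, as miR-130b-3p was less abundant than miR-454-3p.

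The second question was which members differed between hypoxia and normoxia. The summed 3p members had a log2 ratio of 0.08 (-0.11 to 0.27), with the median of the 339 miRNAs past the filter also at 0.08, and this value was 0.01 with the size factors of DESeq2 but changed sign to -0.04 with TMM factors, -0.02 with totals of every feature, -0.11 with totals without miR-21-5p and -0.12 with totals without the 10 most abundant miRNAs. No difference of the 3p members between the libraries was detectable at this depth. Singly, the log2 ratio was 0.05 (-0.18 to 0.28) for miR-130a-3p, below 0 under each of these 5 other scalings. For miR-130b-3p it was 0.19 (-0.23 to 0.62), and -0.0049 with totals without the 10 most abundant miRNAs. miR-301a-3p had a log2 ratio of -0.05 (-0.69 to 0.62) and miR-301b of 0.48 (-1.35 to 3.18), both with intervals that include 0. miR-454-3p had a log2 ratio of 0.13 (0.04 to 0.21), with an interval above 0, but this fell to 0.01 with TMM factors and changed sign to -0.06 with totals without miR-21-5p.

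A miRNA past the filter was called higher or lower where its log2 ratio reached 0.9 or -0.9. By this size rule, 1 of the 4 members past the filter was higher in hypoxia, against 3.54% of all 339 miRNAs (12), and 0 were lower, against 3.24% (11). The member called higher was miR-130a-5p, with a log2 ratio of 1.02 (0.51 to 1.62), a fold of 2.03. miR-130b-5p, at 0.88 (0.55 to 1.25) and a fold of 1.85, lay just short of the threshold. The interval of each 5p arm contained the value of the other, so the side of the threshold does not separate them. Summed, both 5p arms had 125 counts in normoxia, or 27.7 CPM (23.0 to 33.0), and 457 in hypoxia, or 53.1 CPM (48.4 to 58.2). Their log2 ratio of 0.93 (0.65 to 1.24) lay between 0.74 and 0.94 under every scaling, prior count and depth tried. With miR-301a-5p added, which is not a member, the log2 ratio of the sum was 0.78 (0.51 to 1.06). Alone, miR-301a-5p had a log2 ratio of -0.69 (-1.63 to 0.15) and did not pass the filter. The call of miR-130a-5p held with TMM factors (0.91), DESeq2 size factors (0.95) and totals of every feature (0.93), and was lost with totals without miR-21-5p (0.84) and without the 10 most abundant miRNAs (0.83).

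**Figure D2:**
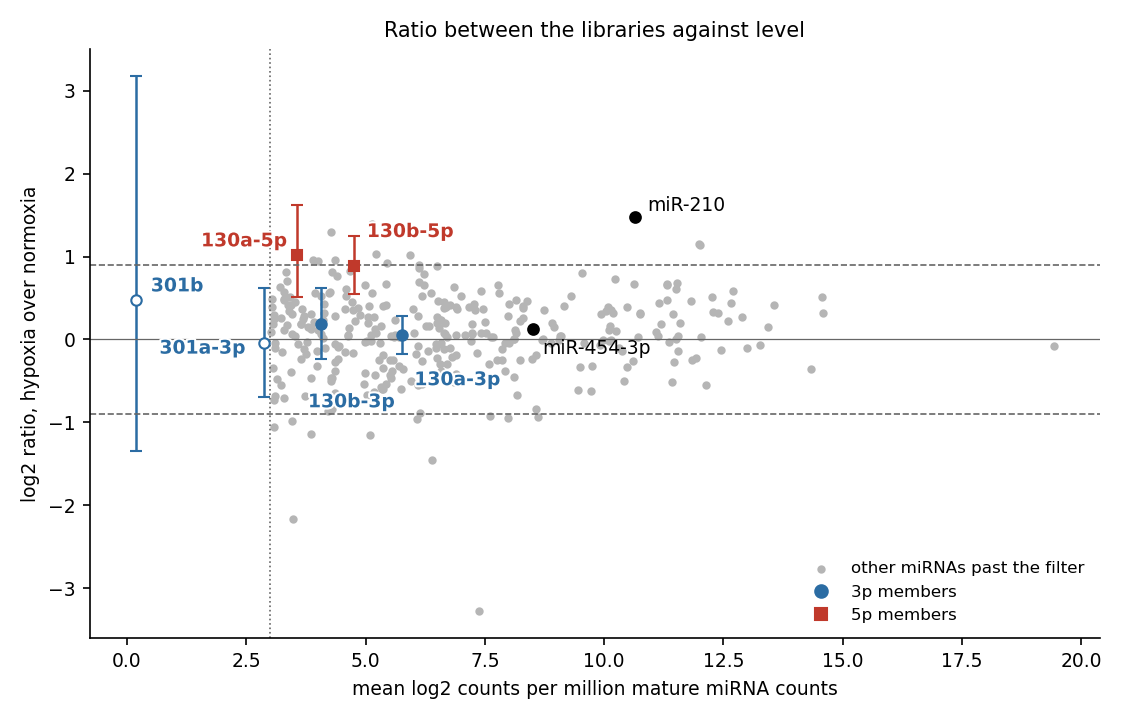
Log2 ratio of hypoxia over normoxia against mean log2 CPM for the miRNAs past the filter (grey) and the members (blue circles for 3p, red squares for 5p, open symbols for members short of the filter), with bars for exact 95% counting intervals of the members. Dashed lines mark the thresholds of 0.9 and the dotted line the filter at 3; the 5p members lie at 1.02 and 0.88, and the 3p members past the filter at 0.05 and 0.19, where the scalings named in the text put miR-130a-3p below 0.

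A scaling moves the ratios of the miRNAs past the filter by about the same amount. The distance of such a member from the median of these miRNAs is therefore nearly fixed whatever scaling is used, and its constancy is no sign of stability. With mature totals, miR-130a-5p lay 0.94 above this median and miR-130b-5p 0.81. miR-130a-3p lay at -0.03 from the median and miR-130b-3p at 0.11. The 5p arms thus stood above the median by more than the 3p arms did.

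**Figure D3:**
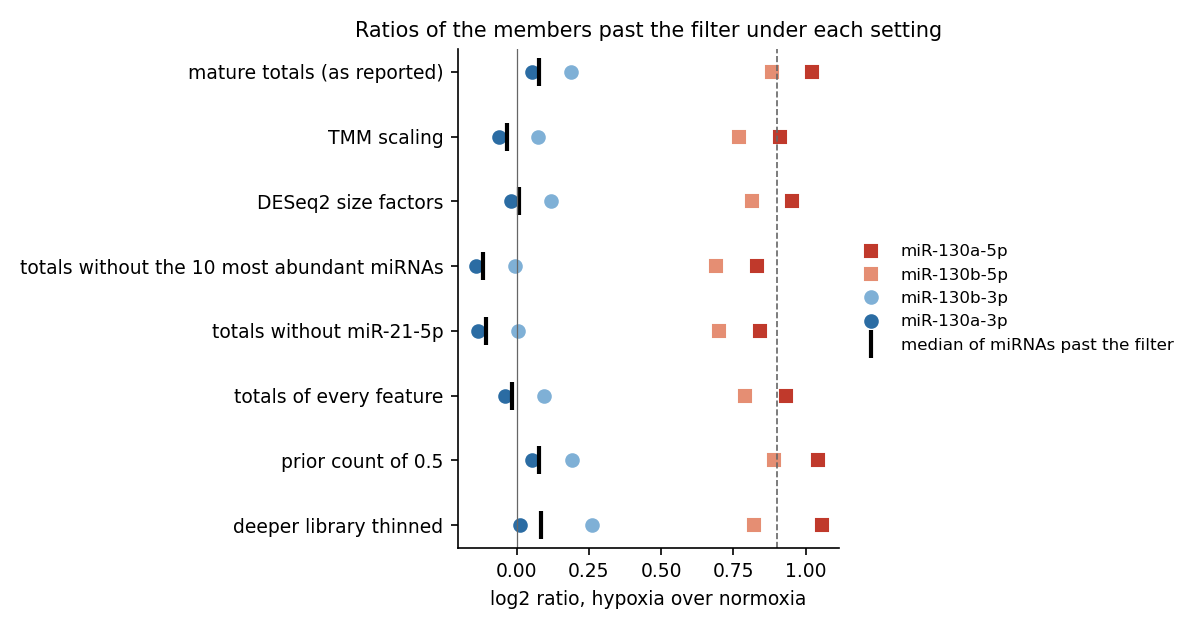
Log2 ratios of the 4 members past the filter (circles for 3p, squares for 5p) and the median of all miRNAs past the filter (black bars) under 8 settings, with the dashed line at the threshold of 0.9. All values move together with the scaling, miR-130a-3p and the median cross 0, and miR-130a-5p lies between 0.83 and 1.06.

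Ratios of this size were uncommon but not particular to the members. Of the 132 miRNAs with a sum of 100 to 500 counts over both libraries, the range that holds both 5p members, 9 had a log2 ratio at least that of miR-130b-5p and 5 at least that of miR-130a-5p, the members included. Among the 43 miRNAs named as 5p arms in this range the median was 0.14, and 4 and 1 of them reached these values, so that miR-130a-5p itself was the highest. Among all 139 5p arms past the filter the median was 0.04, and 7 and 4 of them reached these values, the members included. For all 126 3p arms the median was 0.12, and 5 and 2 reached them. A higher ratio of 5p arms in general was therefore not seen.

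The 3p and 5p arms of a hairpin come from 1 precursor, and the ratio of their counts within a library does not depend on the scaling, since the library factor cancels. For miR-130a the log2 ratio of 3p over 5p counts, with 0.5 added to each, was 2.71 in normoxia and 1.73 in hypoxia. The 5p arm as counted made up 13.1% of the counts of the hairpin's arms in normoxia (9.34 to 17.7) and 23.1% in hypoxia (19.8 to 26.7). These intervals did not overlap. The counted 5p sequence starts 6 bases downstream of the RefSeq one, so the shares are those of that sequence. Reads with the RefSeq start were not examined. For miR-130b the log2 ratio was -0.36 in normoxia and -1.07 in hypoxia, with a 5p share of 56.3% (48.2 to 64.2) and 67.7% (63.3 to 72.0), whose intervals overlapped slightly. The change in the log2 ratio was -0.98 for miR-130a (interval by the normal approximation -1.56 to -0.41) and -0.70 for miR-130b (-1.23 to -0.17). Both paralogues thus had a larger 5p share in the hypoxia library. The change in the arms comes from the same counts as the ratios of the 3p and 5p members, so it is not a separate result.

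For miR-301a and miR-454 no change in the arms was detectable beyond counting error, and miR-301b, with 1 arm listed, was not examined. miR-301a-3p and miR-301a-5p had 32 and 22 counts in normoxia and 59 and 25 in hypoxia, a change in the log2 ratio of 0.69 in the opposite direction with an interval of -0.33 to 1.72. miR-454 was strongly biased to its 3p arm, with 17 and 41 counts on miR-454-5p, and its log2 ratio was 6.50 in normoxia and 6.31 in hypoxia. Its change of -0.19 was smaller than its standard error of 0.41. The low counts of miR-301a-5p and miR-454-5p limit both comparisons.

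Among 150 other hairpins with at least 20 counts over both arms in each library, the median change was 0.00 and the median absolute change 0.50. A change at least as far toward the 5p arm was seen in 12 of them for the value of miR-130a and in 26 for that of miR-130b. With a minimum of 30 counts in each arm and library, chosen after the data were seen, these were 2 and 8 of 76. The change of miR-130a, with its 5p arm as counted, was thus among the larger ones toward the 5p arm and that of miR-130b less so. The level of the arms also set miR-130b apart from miR-130a. In normoxia the 5p arm exceeded the 3p arm in 88 of the 150 other hairpins, but a ratio within a factor of 4 either way was seen in 29, and one as even as that of miR-130b in 3. These counts are for normoxia only. The last takes the value of miR-130b without its interval, a 5p share of 48.2% to 64.2%. The shares of miR-574 (62.0%), miR-1307 (62.9%) and miR-542 (63.6%), among others, also lay in it. miR-301a, not among the 150, had a log2 ratio of 0.53. In hypoxia the log2 ratio of miR-130b was less even, at -1.07, and more even ones were seen in miR-140 (-0.91), miR-502 (0.80) and miR-574 (0.19), among others.

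**Figure D4:**
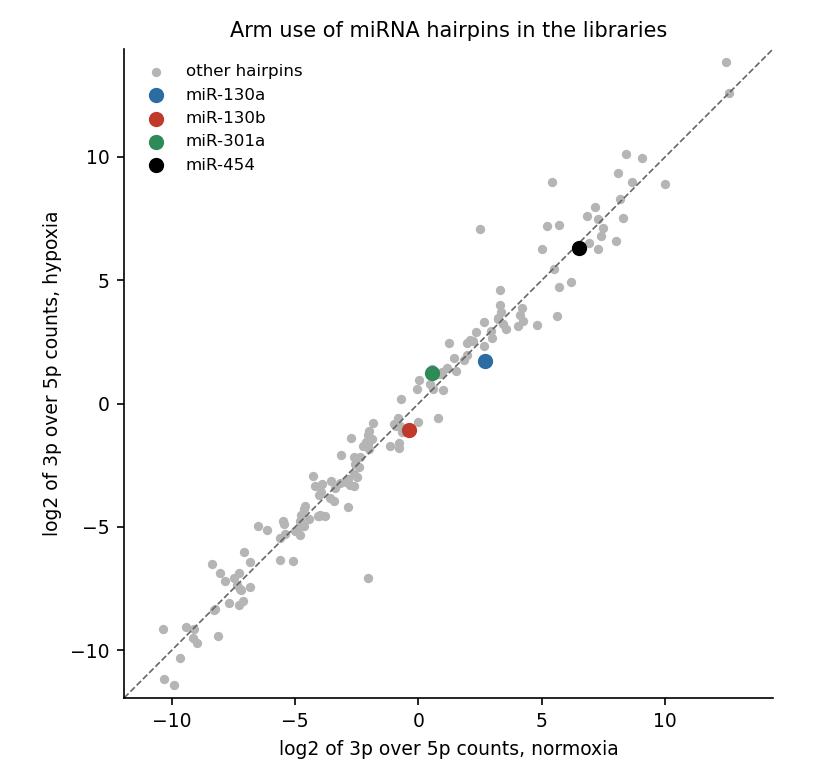
Log2 ratio of 3p over 5p counts in hypoxia against that in normoxia for hairpins with both arms listed, with 0.5 added to each count and the dashed line marking equal values. miR-130a (2.71 and 1.73) and miR-130b (-0.36 and -1.07) lie below the line, miR-301a (0.53 and 1.22) above it and miR-454 close to it.

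miRNAs whose seed is shifted by 1 base from that of the family gave no common direction. miR-19b-3p, an arm of the oncogenic miR-17-92 cluster, was the most abundant of these 5, at 10447 CPM in normoxia and 13882 CPM in hypoxia, with a log2 ratio of 0.41 (0.39 to 0.43). Its paralogue miR-19a-3p was at 3118 CPM and 2593 CPM, a log2 ratio of -0.27 (-0.30 to -0.24). In the miR-148/152 group, miR-148b-3p had 560 CPM and 979 CPM and a log2 ratio of 0.81 (0.74 to 0.87). The ratio was 0.16 (-0.02 to 0.35) for miR-152 and -0.34 (-0.95 to 0.25) for miR-148a-3p, with intervals that include 0. None of the 5 met the size rule, and the miR-19 paralogues differed in sign beyond counting error.

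Of 15 miRNAs often described as responsive to low oxygen, 14 were listed and 13 passed the filter. miR-210, the miRNA most widely used as a marker of hypoxia, had 4307 counts in normoxia, or 954 CPM (926 to 983), and 22849 in hypoxia, or 2657 CPM (2623 to 2691), a log2 ratio of 1.48 (1.43 to 1.52). It was the 1 miRNA of the list above the size threshold, and the 1 below it was miR-424-5p at -0.92. The median of the 13 was -0.08, against 0.08 over all 339. The ratio of miR-130a-5p was smaller than that of miR-210 as a point value only. Its interval, which rests on far fewer counts, reached from 0.51 to 1.62 and included the value of miR-210, so these ratios could not be ordered.

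The miRNAs nearest to the leading members by the distance of their log2 CPM over both libraries were named as a description of levels. Nearest to miR-130a-3p was miR-9-5p, with 232 and 451 counts and a distance of 0.0780, followed by miR-2682-3p and miR-874. Nearest to miR-130b-5p, the second most abundant member, were miR-410 (85 and 289 counts, a distance of 0.139), miR-589-3p and let-7e-3p. miR-410 had a log2 ratio of 0.83, close to the 0.88 of miR-130b-5p. Over 2 libraries such nearness says only that these miRNAs had like levels in each.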

How the data were processed

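Small RNA was measured in 1 normoxia and 1 hypoxia library of A549. The authors deposited raw read counts per small RNA feature, with no normalization. The study's methods name LifeScope v2.5.1 with miRBase v18 for SOLiD small RNA data without naming this experiment, and the submitters' processing notes name the genome build hg19. No column of the table belonged to other samples (0). The table's sequences carry 1 flanking base at each end, and after its removal 653 of 687 miRNAs found by name were identical to RefSeq. Loci came from GENCODE release 29. No correction for sequence-dependent capture was made, so levels of different miRNAs are relative.

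Counts were scaled to the mature totals. TMM factors came from edgeR version 4.0.16 and size factors from DESeq2 version 1.42.0 in R version 4.3.3, and the rest from Python version 3.11.15 with scipy version 1.17.1. The calculation was tested on simulated data. A count of 0 is given an upper limit of 3 counts. The study's RNA sequencing methods apply the same level filter and a log2 threshold of -0.9 to lowered genes, and the size rule here uses that size in both directions. Alternatives were other scalings, the deeper library thinned to the depth of the other, a prior count of 0.5, other filters, another threshold, other denominators and members left out. The text names the members and all arms of their hairpins, seed relatives, cluster partners, miR-210, miR-21-5p, leading entries of the lists and the 3 miRNAs nearest to each of the 2 most abundant members. Members and lists were chosen with earlier results of these data known.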

Additional observations from a re-analysis of the deposited data

Results flagged for a closer look

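The count table also lists precursor hairpins, which entered no comparison of mature arms and for which the conditions give no control. Counts above the 3 that a count of 0 allows lay on 3 hairpin entries related to the family. The hairpin entry of miR-130a had 7 counts in normoxia and 16 in hypoxia, that of miR-301a had 4 counts in each library, and that of miR-454 had 6 counts in normoxia and 14 in hypoxia.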

How the results depend on the processing

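No paired analysis was possible because normoxia and hypoxia had 1 library each, and for the same reason no replicate could be left out. Relative to mature totals, the scale of the log2 ratios was lowered by 0.11 with TMM factors and 0.19 with totals without miR-21-5p. With totals without the 10 most abundant miRNAs it was lowered by 0.20. The prior count makes the fall smaller for miRNAs with few counts, as for miR-301b, from 0.48 to 0.40 with TMM factors. The summed 3p members moved outside their interval of 0.08 only with totals without the 10 most abundant miRNAs, to -0.12. The sign of miR-454-3p reversed there, to -0.069, and with totals without miR-21-5p, to -0.060. The members' 3p share of 0.00760% in normoxia and 0.00802% in hypoxia became 0.00532% and 0.00526% of every feature, 0.0273% and 0.0254% without miR-21-5p, 0.0104% and 0.0133% with the 5p arms added and 0.0427% and 0.0464% with the other miRNAs of the seed added, as these denominators and sums imply. The size rule called 12 higher and 11 lower (52.2% higher). With TMM factors, DESeq2 size factors or totals of every feature it called 8 and 15 (34.8%), without miR-21-5p 5 and 17 (22.7%), without the 10 most abundant miRNAs 5 and 18 (21.7%), and with no filter on low counts 113 and 64 (63.8%). With miRNAs kept from a mean of 20 CPM it called 9 and 7, and with a threshold of 1 it called 8 and 6. The 1 member called became 0 without miR-21-5p, without the 10 most abundant miRNAs and with miRNAs kept from a mean of 20 CPM. In all, 49 values of the main results stayed within their interval or within 1.5 times the count, and 20 did not. The 49 include the count of members called lower, which was 0 in every setting and says nothing of stability. The log2 ratios of miR-130a-5p (0.83 to 1.06), miR-130b-5p (0.69 to 0.89) and the summed 5p arms were above 0 under all 7 alternatives. The largest shift of scale was 0.20, well short of these ratios, so their constant sign says little of stability. With 3 to 59 counts, the depth limits what can be said of miR-301a-3p and miR-301b.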
